A study of Oryza sativa with 8 samples.

Results

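The loci described here are the genes of the cell cycle and of DNA replication in the rice (Oryza sativa) shoot apical meristem, a small group of stem cells and their progeny at the tip of the shoot from which leaves and flowers arise. They were chosen by annotation alone: every transcript model whose annotation names a cyclin, a cell division control protein, a minichromosome maintenance (MCM) protein, the proliferating cell nuclear antigen (PCNA), a replication or licensing factor, the origin recognition complex, a DNA polymerase, ribonucleotide reductase or E2F, without F-box, tetracycline and transposon entries. This gave 175 models, and the model with the highest mean at each locus left 154 of 36819 loci. Libraries of total RNA came from 3 samples labelled OsglHAT1-OE, 3 labelled GW6a-4.6 and 2 of the cultivar Nipponbare. The OsglHAT1-OE plants are transgenics made in Nipponbare, and neither the promoter nor the number of transgenic events is given in the sources used here. The line GW6a-4.6 is Nipponbare with a chromosome segment replaced by that of the cultivar Kasalath. No age, growth stage or batch is given, and nothing says that replicates were separate plants, so p-values measure the spread between these libraries, which may be technical.

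Values are read alignments per transcript model, scaled per 1000000 library reads, and library totals ran from 5207710 to 7667853 reads. They are not divided by transcript length, so levels are compared between samples and not between genes. The GW6a/OsglHAT1 transcript Os06t0650300-00, the histone acetyltransferase gene after which both lines are named, had 13.2, 8.87 and 10.0 in the libraries labelled OsglHAT1-OE, 2642, 2573 and 2913 in those labelled GW6a-4.6, and 1.46 and 2.3 in Nipponbare. Both lines lay above Nipponbare, but the label that ends in OE went with the smaller rise, so the libraries are called by their labels and no direction is tied to the dose of that gene. Replicate 3 of OsglHAT1-OE stood apart from the other 7 libraries, at 2.41 alignments for each read, where the others had 2.66 to 2.69. The meristem homeobox genes OSH1 (Os03t0727000-01) and OSH15 (Os07t0129700-01) were read in all 8 libraries, at 112, 109 and 95.7 in the libraries labelled OsglHAT1-OE, 96.4, 109 and 88.6 in those labelled GW6a-4.6, and 33.3 and 30.0 in Nipponbare for OSH1. OSH15 had 101, 103 and 80.8 in the libraries labelled OsglHAT1-OE, 179, 150 and 177 in those labelled GW6a-4.6, and 50.2 and 47.2 in Nipponbare. Both were higher in each line than in Nipponbare, as was OSH43 (Os03t0771500-01), at log2 changes of 0.75 in OsglHAT1-OE and 0.95 in GW6a-4.6. OSH6 (Os01t0302500-01), the other meristem marker listed, was lower in OsglHAT1-OE at -0.48 (adjusted p = 0.0104) and did not pass in GW6a-4.6 at 0.12.

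A cell that divides passes through a gap phase, a phase of DNA synthesis, a second gap and mitosis. Cyclins bind cyclin-dependent kinases (CDKs) and steer them through these phases: D-type cyclins act at entry, A-type cyclins mainly during synthesis and the second gap, and B-type cyclins at mitosis. Active kinases lift the retinoblastoma-related brake from E2F factors, which switch on the replication genes. The origin recognition complex then marks the start sites, the MCM helicase is loaded and opens the DNA, and polymerases held by the PCNA clamp copy it. In the shoot meristem this machinery keeps supplying cells to new organs.

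More of the tested cell cycle loci were higher than lower in both lines. Of 154 loci, 144 reached a value of 1 in 2 libraries or more and were tested. Another 6 were at 0 in every library, among them 5 putative F-type cyclins, and 4 stayed under the minimum. In libraries labelled OsglHAT1-OE, 71 of the 144 were higher than in Nipponbare and 29 lower, or 49.3% and 20.1%, at an adjusted p under 0.05 in limma. Over all 31487 tested loci 52.5% were called, 22.8% being higher and 29.7% lower. In libraries labelled GW6a-4.6, 84 were higher and 16 lower, or 58.3% and 11.1%, beside 46.3% called over all tested loci, 26.7% being higher and 19.5% lower. The median log2 change of the tested cell cycle loci was 0.35 in OsglHAT1-OE and 0.46 in GW6a-4.6, beside -0.08 and 0.07 over all tested loci. Without replicate 3 of OsglHAT1-OE, 76 were higher and 26 lower in that line. Without replicate 1 of Nipponbare, 62 were higher and 15 lower in OsglHAT1-OE, and 72 higher and 10 lower in GW6a-4.6. Both comparisons use the same 2 Nipponbare libraries. In bulk tissue, a larger share of dividing cells and more RNA per cell cannot be told apart.

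**Figure D1:**
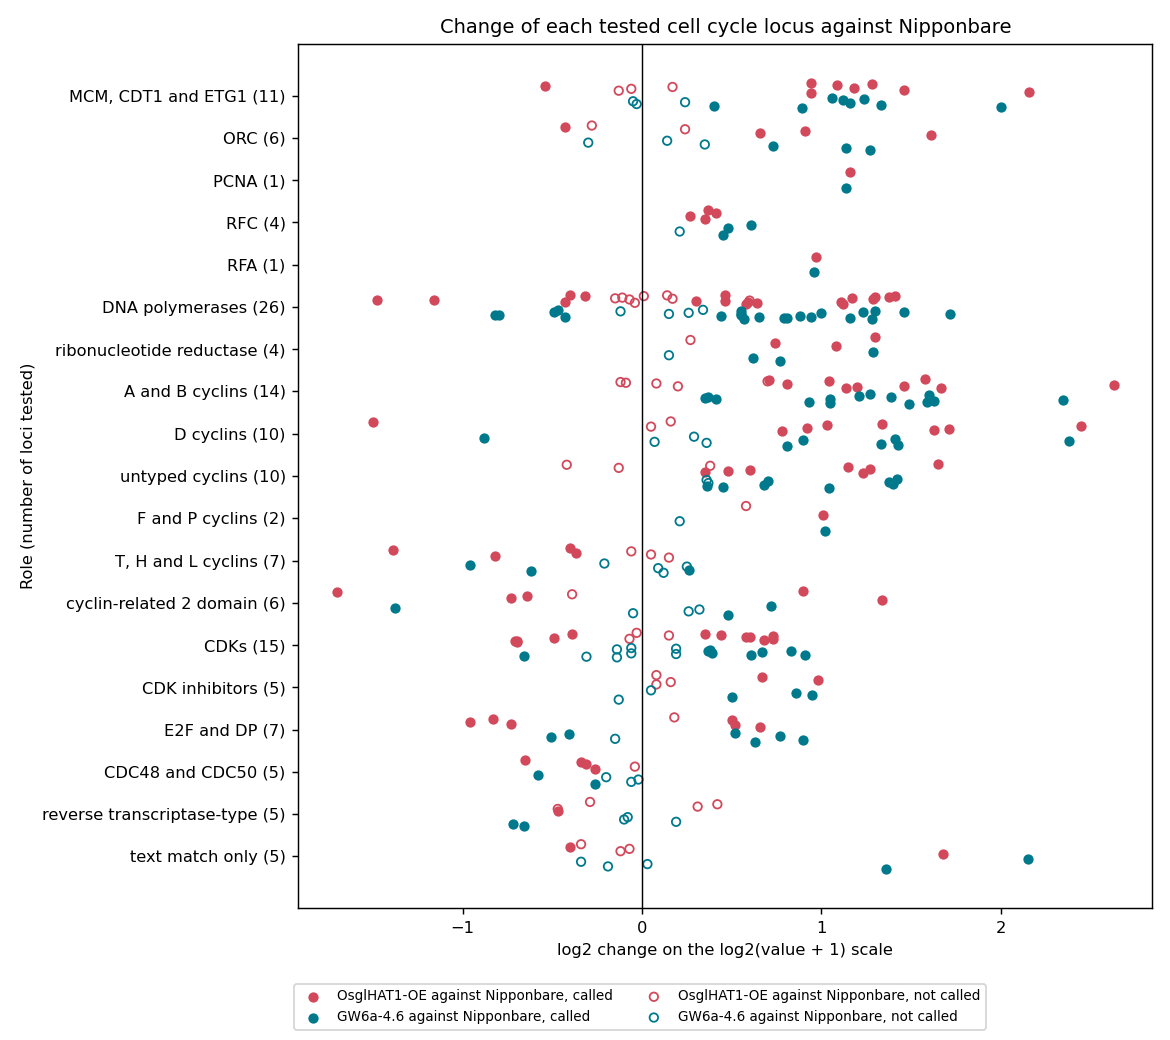
Log2 change on the log2(value + 1) scale of the 144 tested loci, by role, in OsglHAT1-OE and in GW6a-4.6 against Nipponbare; each point is 1 locus, filled where the adjusted p was under 0.05 and open otherwise. Most points of the MCM, A- and B-type cyclin and untyped cyclin rows lie right of 0, and those of CDC48 lie left of it.

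Some lists of loci named for other tissues moved with the groups as well, and others did not. The summed value of 38 late embryogenesis, dehydrin and seed maturation loci was 868 to 1028 in OsglHAT1-OE and 1072 to 1168 in GW6a-4.6, against 3507 to 3854 in Nipponbare. Of the 28 tested, 19 were lower in each line, or 67.9%, beside 29.7% of all tested loci in OsglHAT1-OE and 19.5% in GW6a-4.6. The 59 pollen and anther loci summed to 3661 to 4316 in OsglHAT1-OE and 2963 to 3308 in GW6a-4.6, against 2784 to 2931 in Nipponbare. Leaf photosynthesis loci, 56 in number, summed to 4834 to 5904, 4154 to 5239 and 4702 to 5202 in the same order, so those groups overlapped. The 3 root loci summed to at most 6.39 in any library. The 154 cell cycle loci themselves summed to 9398 to 10802 in OsglHAT1-OE and 10549 to 11091 in GW6a-4.6, against 8637 to 8722 in Nipponbare. The part of these other tissues in the cell cycle changes was not tested.

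Most loci of the MCM, CDT1 and ETG1 group were higher in both lines, but the CDT1-like locus was higher in neither. Of 11 MCM, CDT1 and ETG1 loci, 7 were higher and 1 lower in OsglHAT1-OE, and 8 were higher and none lower in GW6a-4.6. That was 63.6% and 72.7% higher, beside 22.8% and 26.7% of all tested loci. The MCM3 homolog Os05t0476200-01, a subunit of the helicase ring, had 172, 186 and 188 in the libraries labelled OsglHAT1-OE, 153, 164 and 181 in those labelled GW6a-4.6, and 61 and 70.3 in Nipponbare. All 6 libraries of the lines lay above both of Nipponbare, a 2.77-fold rise in OsglHAT1-OE with a log2 change of 1.46 (SE 0.10, adjusted p = 4.73e-15) and a 2.53-fold rise in GW6a-4.6 with a log2 change of 1.33 (SE 0.10, adjusted p = 9.13e-14). The MCM4 locus Os01t0544450-01, another ring subunit, had 223, 215 and 194 in the libraries labelled OsglHAT1-OE, 188, 221 and 210 in those labelled GW6a-4.6, and 86 and 86.4 in Nipponbare. It rose 2.44-fold (adjusted p = 4.64e-14) and 2.39-fold (adjusted p = 1.29e-13).

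The loci annotated only as an MCM family protein or as carrying an MCM ATPase domain did not all behave alike. Os02t0797400-01 rose 2.14-fold to 188 ± 12.2 in OsglHAT1-OE and 2.18-fold to 192 ± 10.0 in GW6a-4.6 (SD, n = 3 each), against 87.9 ± 1.51 in Nipponbare (SD, n = 2). Os05t0235800-01 rose 2.29-fold to 176 ± 10.8 and 2.26-fold to 173 ± 16.1 in the same order, against 76.9 ± 2.03 in Nipponbare. The ETG1 locus Os01t0166800-01, whose Arabidopsis namesake is a replication factor switched on by E2F, had 149, 143 and 134 in the libraries labelled OsglHAT1-OE, 164, 154 and 145 in those labelled GW6a-4.6, and 71.4 and 75.7 in Nipponbare. Its folds were 1.94 and 2.1. A second MCM3-like locus, Os05t0173700-01, had 24.8, 28 and 21.8 in the libraries labelled OsglHAT1-OE, 27.1, 26.2 and 25 in those labelled GW6a-4.6, and 19.6 and 24.6 in Nipponbare, with log2 changes of 0.17 and 0.24 that did not pass the test. The MCM family locus Os05t0464100-01 also did not pass in either line, at 5.87, 4.04 and 5.45 in the libraries labelled OsglHAT1-OE, 5.36, 6.12 and 4.35 in those labelled GW6a-4.6, and 5.12 and 5.57 in Nipponbare. These last 2 loci, and the next 2, were chosen after their values were seen.

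MCM10 (Os09t0539400-00), which helps to start unwinding once the helicase is in place, had 17.5, 13.3 and 15 in the libraries labelled OsglHAT1-OE, 12.5, 16.4 and 12 in those labelled GW6a-4.6, and 3.51 and 1.92 in Nipponbare. This was 5.62-fold higher in OsglHAT1-OE and 5.02-fold higher in GW6a-4.6, from 34 read alignments in the Nipponbare libraries together. The MCM2-like locus Os11t0484300-01 had 263, 280 and 246 in the libraries labelled OsglHAT1-OE, 217, 282 and 269 in those labelled GW6a-4.6, and 139 and 134 in Nipponbare, and rose 1.92-fold and 1.87-fold. The CDT1-like locus Os04t0185100-01, named for the factor that loads the helicase, went the other way in OsglHAT1-OE. It had 32.9, 34.3 and 27.9 in the libraries labelled OsglHAT1-OE, 43.2, 40.1 and 51.6 in those labelled GW6a-4.6, and 45.8 and 46.7 in Nipponbare. The 3 libraries of OsglHAT1-OE lay below both of Nipponbare, a log2 change of -0.54 (SE 0.14, adjusted p = 0.002), while those of GW6a-4.6 overlapped them at -0.05 (adjusted p = 0.821). A locus similar to CDT1a (Os10t0489900-01) lay outside the annotation rule and was looked at after its values were seen. It was not lower, at log2 changes of 0.21 in OsglHAT1-OE and 0.06 in GW6a-4.6 that did not pass.

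The origin recognition complex did not move as one. Of its 6 loci, 3 were higher in each line, or 50.0%, beside 22.8% of all tested loci in OsglHAT1-OE and 26.7% in GW6a-4.6. Only 1 was lower, in OsglHAT1-OE, or 16.7% beside 29.7%. ORC3 (Os10t0402200-00) had 37.3, 32.6 and 32.4 in the libraries labelled OsglHAT1-OE, 26.4, 28.3 and 25 in those labelled GW6a-4.6, and 12.9 and 8.45 in Nipponbare, so that it was 3.2-fold higher in OsglHAT1-OE and 2.49-fold higher in GW6a-4.6. ORC1 (Os06t0187000-01) had 105, 110 and 82.3 in the libraries labelled OsglHAT1-OE, 82.3, 88.7 and 89.1 in those labelled GW6a-4.6, and 49.7 and 54.3 in Nipponbare, with folds of 1.9 and 1.67. All libraries of both lines lay above Nipponbare for these 2 subunits. ORC6 (Os07t0628600-00) rose 1.64-fold to 23.9 ± 5.39 in OsglHAT1-OE and 2.29-fold to 33.3 ± 2.1 in GW6a-4.6, against 14.6 ± 0.502 in Nipponbare. ORC1, ORC3 and ORC6 were named after their values were seen. ORC2 (Os03t0184700-01) had 51.7, 56.3 and 39.2 in the libraries labelled OsglHAT1-OE, 55.3, 48.9 and 55.4 in those labelled GW6a-4.6, and 69.3 and 62.6 in Nipponbare. It was lower in OsglHAT1-OE, at a log2 change of -0.43 (SE 0.14, adjusted p = 0.00773), a call lost without replicate 1 of Nipponbare, and it did not pass in GW6a-4.6 at -0.30. ORC4 and ORC5 passed in neither line, with log2 changes between -0.28 and 0.35.

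**Figure D2:**
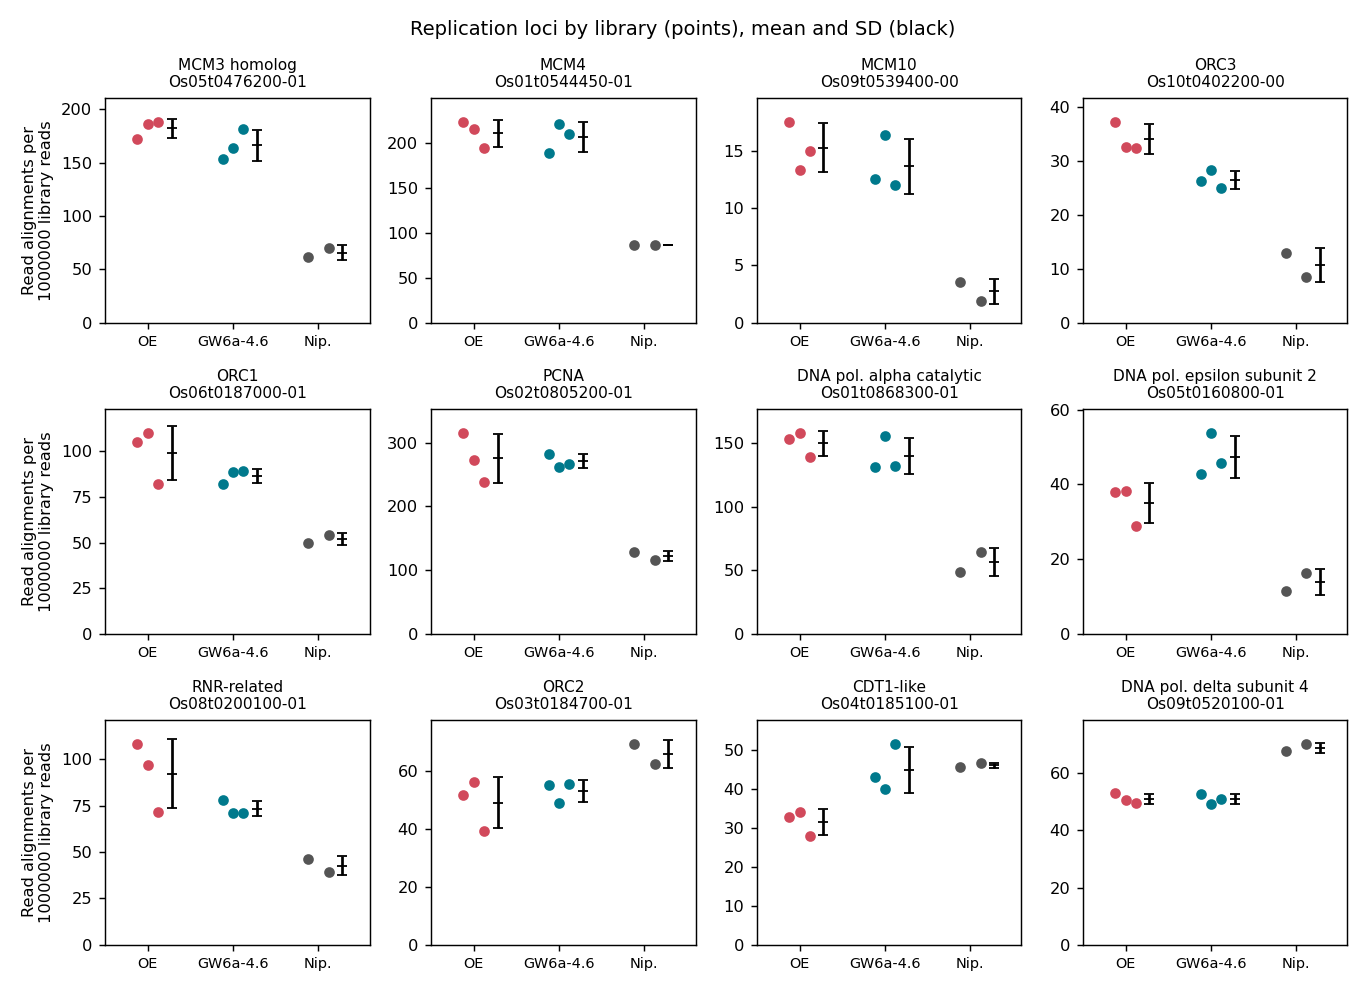
Deposited value (read alignments per 1000000 library reads) per library (points) of 12 replication loci in OsglHAT1-OE (OE), GW6a-4.6 and Nipponbare (Nip.), with the mean and SD in black beside each group (n = 3, 3 and 2); axes start at 0. MCM3, MCM4, MCM10, ORC1, ORC3 and PCNA lie higher in both lines than in Nipponbare, while ORC2, the CDT1-like locus and polymerase delta subunit 4 do not.

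PCNA is the ring that holds polymerases on DNA. Of 6 loci for PCNA, replication factor A and replication factor C, 6 were higher in OsglHAT1-OE and 5 in GW6a-4.6. PCNA (Os02t0805200-01) had 315, 273 and 238 in the libraries labelled OsglHAT1-OE, 283, 262 and 267 in those labelled GW6a-4.6, and 128 and 116 in Nipponbare. All 6 libraries of the lines lay above both of Nipponbare, and the log2 change was 1.16 (SE 0.10, adjusted p = 9.47e-13) in OsglHAT1-OE and 1.14 (SE 0.10, adjusted p = 1.85e-12) in GW6a-4.6. Replication factor A protein 3 (Os01t0253600-01), a subunit of the complex that coats single-stranded DNA, had 59.3, 56.6 and 47.6 in the libraries labelled OsglHAT1-OE, 58.9, 51.6 and 51.1 in those labelled GW6a-4.6, and 26 and 28.4 in Nipponbare. It rose 2.0-fold and 1.98-fold. The subunits of replication factor C, which opens the PCNA ring and loads it, had folds under those of PCNA. The 40 kDa subunit Os04t0569000-01 had 97.9, 99.1 and 79.7 in the libraries labelled OsglHAT1-OE, 93.2, 99.4 and 95.1 in those labelled GW6a-4.6, and 68.2 and 69.1 in Nipponbare, 1.34-fold and 1.4-fold higher. The 36 kDa subunit Os02t0775200-01 was 1.3-fold higher in OsglHAT1-OE and 1.54-fold higher in GW6a-4.6, and RFC4 (Os12t0176500-01) 1.29-fold and 1.37-fold. The 110 kDa subunit, the fourth locus, passed in OsglHAT1-OE only, at 0.27, against 0.21 in GW6a-4.6, and the difference between the 2 lines did not pass the test (adjusted p = 0.67). Without replicate 1 of Nipponbare, 1 of the 4 subunits was called in OsglHAT1-OE and 2 in GW6a-4.6.

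Among 26 DNA polymerase loci, 13 were higher and 5 lower in OsglHAT1-OE, or 50.0% and 19.2%, beside 22.8% and 29.7% of all tested loci. In GW6a-4.6, 17 were higher and 5 lower, or 65.4% and 19.2%, beside 26.7% and 19.5%. Without replicate 1 of Nipponbare, 3 were lower in each line, and likewise 3 in GW6a-4.6 without replicate 2 of Nipponbare or replicate 1 of GW6a-4.6. Subunits of the replicative enzymes alpha, delta and epsilon were among those that rose. The catalytic subunit of polymerase alpha (Os01t0868300-01), which lays down the primers, had 153, 158 and 139 in the libraries labelled OsglHAT1-OE, 131, 156 and 132 in those labelled GW6a-4.6, and 48.4 and 64.1 in Nipponbare. Its log2 change was 1.41 (SE 0.11, adjusted p = 2.77e-13) in OsglHAT1-OE and 1.30 (SE 0.11, adjusted p = 3.07e-12) in GW6a-4.6. Its subunit B (Os12t0242900-01) rose 2.22-fold to 42 ± 3.87 and 2.48-fold to 46.9 ± 1.13, against 18.9 ± 3.73 in Nipponbare. Subunit 2 of polymerase epsilon, the leading strand enzyme, had 38, 38.3 and 28.9 in the libraries labelled OsglHAT1-OE, 42.8, 53.7 and 45.6 in those labelled GW6a-4.6, and 11.4 and 16.3 in Nipponbare at Os05t0160800-01. That was 2.53-fold and 3.42-fold higher. The catalytic subunit of polymerase delta (Os11t0186400-00), which copies the lagging strand, had 146, 137 and 129 in the libraries labelled OsglHAT1-OE, 141, 166 and 152 in those labelled GW6a-4.6, and 87.5 and 87.9 in Nipponbare, with folds of 1.57 and 1.74.

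Other polymerase loci fell, though the share called lower was not above that of all tested loci in either line. Subunit 4 of polymerase delta (Os09t0520100-01) had 53, 50.5 and 49.4 in the libraries labelled OsglHAT1-OE, 52.8, 49.1 and 50.9 in those labelled GW6a-4.6, and 67.6 and 70.1 in Nipponbare. Every library of the lines lay below both of Nipponbare, at log2 changes of -0.43 (SE 0.12, adjusted p = 0.00347) and -0.43 (SE 0.12, adjusted p = 0.00407). The catalytic subunit of the same enzyme rose in those libraries. The subunit 4 call in GW6a-4.6 was lost without replicate 2 of Nipponbare. The DNA polymerase V family locus Os02t0135700-01 had 193, 206 and 203 in the libraries labelled OsglHAT1-OE, 160, 188 and 191 in those labelled GW6a-4.6, and 257 and 245 in Nipponbare, and was lower in both lines, by 1.25-fold in OsglHAT1-OE, a call lost without replicate 1 of Nipponbare, and 1.4-fold in GW6a-4.6. A locus with the gamma and tau domain of the bacterial polymerase III (Os01t0730900-01) had 28.2, 29 and 25.2 in the libraries labelled OsglHAT1-OE, 22.5, 29.8 and 26.4 in those labelled GW6a-4.6, and 38.9 and 34.2 in Nipponbare. It was called lower in both lines, at -0.40 and -0.47, and 7 of 19 alternatives ended the OsglHAT1-OE call, leaving out either Nipponbare library or replicate 3 of OsglHAT1-OE among them. The GW6a-4.6 call was lost without replicate 1 of Nipponbare or replicate 1 of GW6a-4.6. A pair of loci with adjacent numbers and the annotation similar to DNA polymerase, Os07t0209401-00 and Os07t0209500-01, fell 3.76-fold and 2.72-fold in OsglHAT1-OE and 1.99-fold and 1.99-fold in GW6a-4.6. Their highest value in any library was 8.45. Leaving out replicate 1 of Nipponbare, or replicate 1 or 3 of GW6a-4.6, ended the first locus's GW6a-4.6 call, and leaving out replicate 2 of Nipponbare ended the second's. Another such pair with the same wording, Os02t0511900-00 and Os02t0511901-00, rose instead, the second of them to 75.8 ± 4.54 in OsglHAT1-OE and 85.3 ± 8.82 in GW6a-4.6, against 30.4 ± 4.99 in Nipponbare. Whether copies of a pair share reads was not tested. The repair and bypass polymerases eta, kappa and lambda, named after their values were seen, were higher in GW6a-4.6 at log2 changes of 0.55, 0.55 and 0.55. The kappa call was lost without replicate 2 of Nipponbare or replicate 2 of GW6a-4.6, and the lambda call with no filter, without either Nipponbare library or without replicate 2 of GW6a-4.6. In OsglHAT1-OE their log2 changes were 0.14, -0.15 and -0.07 and did not pass.

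Ribonucleotide reductase makes the deoxynucleotides that replication consumes, and 3 of its 4 loci were higher in each line. That was 75.0%, beside 22.8% of all tested loci in OsglHAT1-OE and 26.7% in GW6a-4.6. Os08t0200100-01, which carries a related domain, had 108, 96.9 and 71.5 in the libraries labelled OsglHAT1-OE, 78, 70.9 and 70.8 in those labelled GW6a-4.6, and 46.4 and 39 in Nipponbare. It rose 2.16-fold in OsglHAT1-OE (adjusted p = 1.27e-08) and 1.72-fold in GW6a-4.6 (adjusted p = 9.46e-06). Os06t0168600-01 had 235, 246 and 213 in the libraries labelled OsglHAT1-OE, 202, 213 and 222 in those labelled GW6a-4.6, and 132 and 144 in Nipponbare, with folds of 1.68 and 1.54. Os02t0804900-00 was 2.67-fold and 2.65-fold higher, at 15.9 ± 2.38 and 15.8 ± 2.62, against 5.96 ± 1.91 in Nipponbare. The small chain Os06t0127900-01, which holds the radical needed for the reaction, had 73.8, 68.5 and 57.6 in the libraries labelled OsglHAT1-OE, 67.3, 56.6 and 59.9 in those labelled GW6a-4.6, and 55.6 and 54.3 in Nipponbare and passed in neither line.

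All 14 A- and B-type cyclin loci were tested. In GW6a-4.6 all 14 were higher than in Nipponbare, beside 26.7% of all tested loci. In OsglHAT1-OE 9 were higher and none lower, or 64.3% higher beside 22.8%. In GW6a-4.6 the cyclin-A2 locus Os03t0208700-00 lost its call without replicate 1 of Nipponbare, and the cyclin-B1-5 locus Os05t0501350-00 without replicate 2. In OsglHAT1-OE Os03t0208700-00 and the type B-like locus Os01t0281200-01 lost theirs without either Nipponbare library or replicate 1 of OsglHAT1-OE. Cyclin-A3-1 (Os03t0607600-00) had 55.8, 54.5 and 44.7 in the libraries labelled OsglHAT1-OE, 40.3, 40.1 and 46.4 in those labelled GW6a-4.6, and 9.07 and 6.14 in Nipponbare. Its libraries lay far above Nipponbare in both lines, with log2 changes of 2.63 (SE 0.16, adjusted p = 2.58e-16) in OsglHAT1-OE and 2.35 (SE 0.16, adjusted p = 8.42e-15) in GW6a-4.6. The cyclin A-like locus Os12t0502300-01 had 90.7, 82.3 and 69.4 in the libraries labelled OsglHAT1-OE, 67.1, 74.9 and 70.3 in those labelled GW6a-4.6, and 26.6 and 22.7 in Nipponbare, a 3.28-fold and a 2.87-fold rise. Cyclin-A1-2 (Os01t0233100-00) rose 3.06-fold to 77.4 ± 7.71 in OsglHAT1-OE and 2.48-fold to 62.6 ± 9.08 in GW6a-4.6, against 25.3 ± 3.07 in Nipponbare. Os01t0233500-01, called only a cyclin in the annotation, had 115, 102 and 99.5 in the libraries labelled OsglHAT1-OE, 86.8, 86.8 and 96.3 in those labelled GW6a-4.6, and 30.7 and 35.3 in Nipponbare and rose 3.19-fold and 2.72-fold.

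Among the mitotic B-type cyclins, the G2/mitotic-specific cyclin 2 (Os06t0726800-01) had 86.6, 79.8 and 64.6 in the libraries labelled OsglHAT1-OE, 98.9, 104 and 98.9 in those labelled GW6a-4.6, and 27.5 and 38.8 in Nipponbare. The lines were 2.32-fold and 3.03-fold above Nipponbare (adjusted p = 8.94e-10 and 1.09e-12). Cyclin-B1-1 (Os01t0805600-01), named after its values were seen, had 145, 143 and 125 in the libraries labelled OsglHAT1-OE, 157, 162 and 142 in those labelled GW6a-4.6, and 62.5 and 69.5 in Nipponbare, 2.08-fold and 2.33-fold higher. Another 3 cyclin B loci, with close locus numbers, behaved otherwise. Os02t0800500-01 had 159, 146 and 135 in the libraries labelled OsglHAT1-OE, 203, 212 and 201 in those labelled GW6a-4.6, and 158 and 160 in Nipponbare. Os02t0801200-01 had 152, 139 and 127 in the libraries labelled OsglHAT1-OE, 188, 196 and 182 in those labelled GW6a-4.6, and 145 and 150 in Nipponbare. In both, GW6a-4.6 lay above Nipponbare, by 1.29-fold and 1.28-fold, while OsglHAT1-OE did not pass, at log2 changes of -0.12 and -0.09. The other one, Os02t0801300-03, did the same, with 0.41 in GW6a-4.6 and 0.08 in OsglHAT1-OE. Their annotations are alike and their values close, and whether the copies share reads was not tested.

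D-type cyclins, which respond to hormones and sugar and open the cycle, rose at 7 of 10 tested loci in OsglHAT1-OE and 6 in GW6a-4.6, with 1 lower in each. In OsglHAT1-OE that was 70.0% higher and 10.0% lower, beside 22.8% and 29.7% of all tested loci. In GW6a-4.6 it was 60.0% and 10.0%, beside 26.7% and 19.5%. The cyclin D locus Os09t0111100-01 had 79, 70.4 and 52.2 in the libraries labelled OsglHAT1-OE, 52.8, 47.8 and 51.1 in those labelled GW6a-4.6, and 19 and 20.0 in Nipponbare. Its log2 change was 1.71 (SE 0.15, adjusted p = 1.42e-12) in OsglHAT1-OE and 1.33 (SE 0.15, adjusted p = 1.09e-09) in GW6a-4.6. The 2 loci that follow were chosen after their values were seen. Cyclin-D1-1 (Os06t0236600-00) had 15.3, 10.2 and 7.96 in the libraries labelled OsglHAT1-OE, 10.0, 7.26 and 14.5 in those labelled GW6a-4.6, and 0.585 and 1.92 in Nipponbare. It was 8.89-fold and 8.45-fold higher, from 14 read alignments in the Nipponbare libraries together. Cyclin-D2-1 (Os09t0382300-00) had 55.2, 50.9 and 37.7 in the libraries labelled OsglHAT1-OE, 40.0, 43.2 and 39.5 in those labelled GW6a-4.6, and 12 and 17.7 in Nipponbare, with folds of 3.23 and 2.76. The exception was the cyclin D locus Os03t0203800-01, at 42.6, 35.2 and 32.7 in the libraries labelled OsglHAT1-OE, 62.5, 53.9 and 54.7 in those labelled GW6a-4.6, and 106 and 105 in Nipponbare. The 3 groups did not overlap, and the locus fell 2.87-fold in OsglHAT1-OE and 1.85-fold in GW6a-4.6.

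The T-, H- and L-type cyclins serve transcription and RNA processing more than division. Of 7 such loci, none was higher and 4 were lower in OsglHAT1-OE, or 57.1% lower beside 29.7% of all tested loci. In GW6a-4.6, 1 was higher and 2 lower, or 28.6% lower beside 19.5% of all tested loci, and the median log2 change was -0.37 in OsglHAT1-OE and 0.09 in GW6a-4.6. Cyclin-T1-1 (Os02t0133000-00), of the family that pairs with CDKC to release paused RNA polymerase, had 25.7, 23.6 and 22 in the libraries labelled OsglHAT1-OE, 31.1, 34.2 and 31.7 in those labelled GW6a-4.6, and 66.3 and 61.4 in Nipponbare. It fell 2.69-fold and 1.98-fold. Another cyclin T1 locus, Os11t0157100-01, had 128, 136 and 117 in the libraries labelled OsglHAT1-OE, 142, 152 and 142 in those labelled GW6a-4.6, and 228 and 221 in Nipponbare, and fell 1.77-fold and 1.54-fold. One more T1 locus, Os12t0485400-01, passed in neither line, at log2 changes of 0.15 and 0.12. Cyclin H-1 (Os03t0737600-01), partner of the kinase that activates other CDKs, was called lower in OsglHAT1-OE at -0.37, and 9 of 19 alternatives ended that call, among them edgeR and leaving out replicate 3 of OsglHAT1-OE. The L-type cyclin Ania-6a (Os01t0377500-01) fell 1.33-fold in OsglHAT1-OE, to 93.1, 85 and 76.5, against 104 and 121 in Nipponbare, a call lost without replicate 2 of Nipponbare. Without that library 2 of the 7 loci were lower in OsglHAT1-OE.

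Loci with only a cyclin-related 2 domain, whose role is not given by the annotation, split both ways. Of 6, 2 were higher and 3 lower in OsglHAT1-OE, or 33.3% and 50.0%, beside 22.8% and 29.7% of all tested loci. In GW6a-4.6, 2 were higher and 1 lower, or 33.3% and 16.7%, beside 26.7% and 19.5%. Without replicate 1 of Nipponbare 1 was higher and 1 lower in each line. Without replicate 2 of Nipponbare 1 was higher in OsglHAT1-OE and none in GW6a-4.6. Os04t0552300-01 had 6.75, 6.26 and 4.42 in the libraries labelled OsglHAT1-OE, 8.21, 8.03 and 6.16 in those labelled GW6a-4.6, and 22.8 and 19.2 in Nipponbare, and fell 3.62-fold and 2.81-fold. Os07t0231500-01 had 13.2, 10.3 and 6.63 in the libraries labelled OsglHAT1-OE, 18.6, 14.5 and 15.6 in those labelled GW6a-4.6, and 18.1 and 15.6 in Nipponbare, and fell 1.68-fold in OsglHAT1-OE. Its OsglHAT1-OE libraries lay below both of Nipponbare, and in GW6a-4.6 it did not pass at -0.05. Os10t0563900-01 had 31.1, 27.1 and 24.8 in the libraries labelled OsglHAT1-OE, 13.2, 14.5 and 16.7 in those labelled GW6a-4.6, and 11.4 and 9.22 in Nipponbare. It rose 2.68-fold in OsglHAT1-OE, and its 1.44-fold rise in GW6a-4.6 was lost under 8 of 19 alternatives, among them edgeR and leaving out replicate 2 of Nipponbare. The 10 tested untyped cyclins were called higher 7 times in OsglHAT1-OE and 8 times in GW6a-4.6, and none was called lower. That was 70.0% and 80.0% higher, beside 22.8% and 26.7% of all tested loci. Cyclin-P3-1 (Os05t0398000-01) was 2.06-fold and 2.06-fold higher, and cyclin-P1-1 passed in neither line. Both P-type loci were named after their values were seen.

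**Figure D3:**
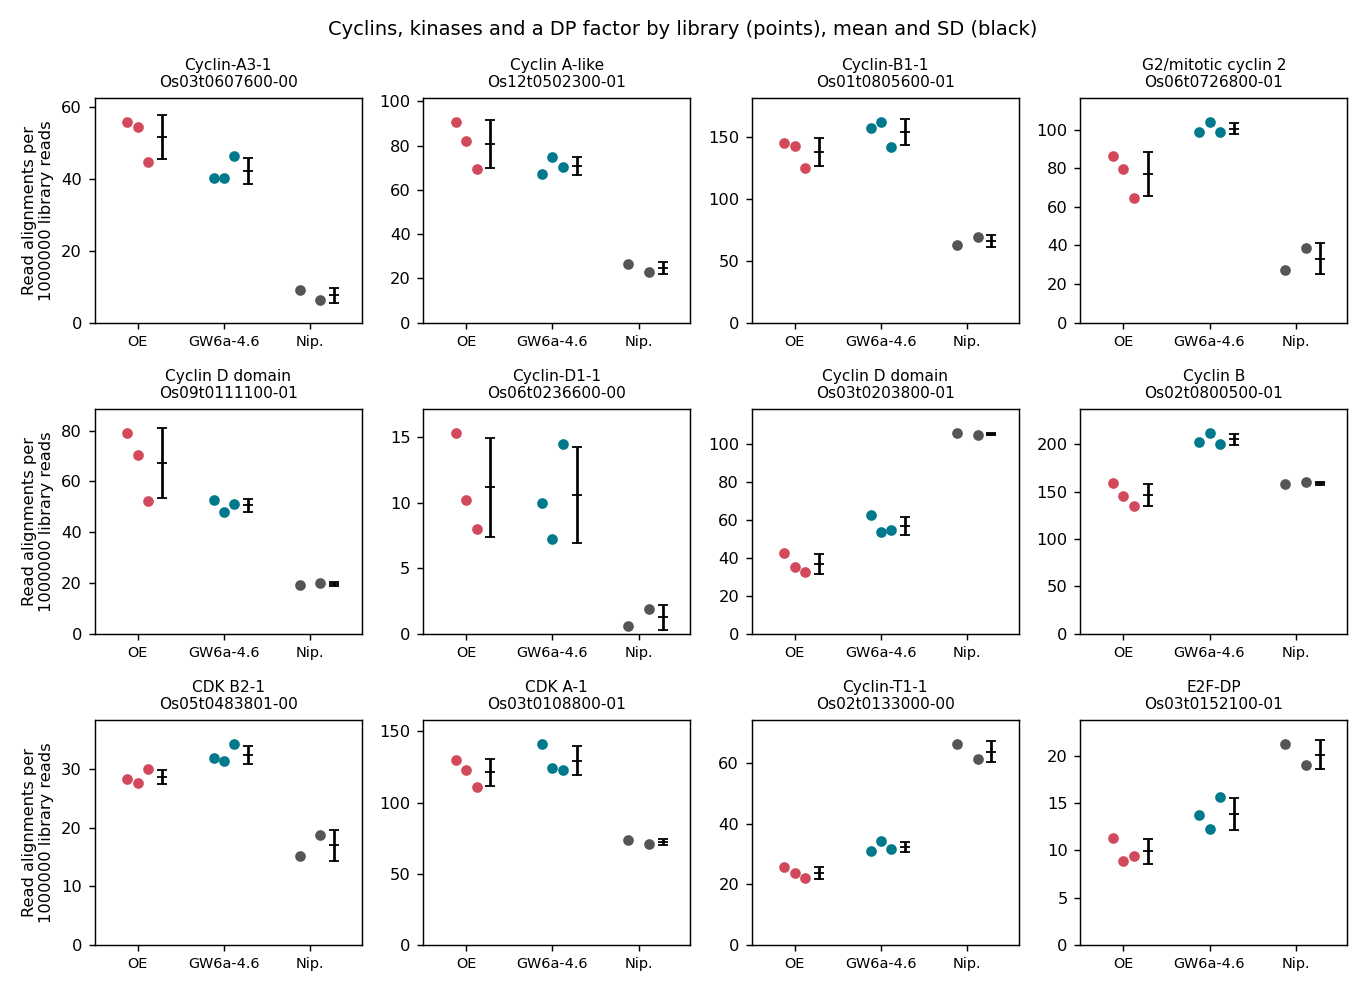
Deposited value (read alignments per 1000000 library reads) per library (points) of cyclins, kinases and a DP factor in OsglHAT1-OE (OE), GW6a-4.6 and Nipponbare (Nip.), with the mean and SD in black (n = 3, 3 and 2); axes start at 0. A-type, B1-1 and most D-type cyclins lie higher in both lines, cyclin B Os02t0800500-01 lies higher in GW6a-4.6, and Os03t0203800-01, cyclin-T1-1 and the E2F-DP locus lie lower.

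Kinase loci moved both ways. Of 15 CDK and CDK-subunit loci, 7 were higher and 5 lower in OsglHAT1-OE, or 46.7% and 33.3%, beside 22.8% and 29.7% of all tested loci. In GW6a-4.6, 7 were higher and 1 lower, or 46.7% and 6.67%, beside 26.7% and 19.5%. The share of kinase loci called lower was thus near that of all tested loci in OsglHAT1-OE and under it in GW6a-4.6. Without replicate 1 of Nipponbare, 5 were higher and 2 lower in OsglHAT1-OE. Cyclin-dependent kinase B2-1 (Os05t0483801-00), of a plant class that acts at mitosis, had 28.3, 27.6 and 29.9 in the libraries labelled OsglHAT1-OE, 31.8, 31.3 and 34.2 in those labelled GW6a-4.6, and 15.1 and 18.8 in Nipponbare. It was 1.69-fold and 1.92-fold higher. The 2 loci annotated as cyclin-dependent kinase A-1, the main kinase of the cycle, also rose. Os03t0108800-01 had 130, 123 and 111 in the libraries labelled OsglHAT1-OE, 141, 124 and 123 in those labelled GW6a-4.6, and 73.9 and 71 in Nipponbare, 1.68-fold and 1.79-fold higher. Os03t0118400-02 had 159, 165 and 144 in the libraries labelled OsglHAT1-OE, 177, 164 and 159 in those labelled GW6a-4.6, and 103 and 105 in Nipponbare, 1.5-fold and 1.6-fold higher.

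The 5 kinase loci that fell in OsglHAT1-OE were annotated as CDK-like proteins, kinase C or homologs of cell division control protein 2. Os08t0112500-01, called a CDK-like protein, had 100, 98.7 and 92.1 in the libraries labelled OsglHAT1-OE, 92.1, 110 and 101 in those labelled GW6a-4.6, and 162 and 157 in Nipponbare, and fell 1.65-fold and 1.58-fold. Kinase C (Os11t0242500-01), the partner of T-type cyclins, had 7.34, 6.0 and 5.6 in the libraries labelled OsglHAT1-OE, 9.28, 8.41 and 7.97 in those labelled GW6a-4.6, and 10.8 and 10.8 in Nipponbare. Its 1.71-fold fall in OsglHAT1-OE was lost without either Nipponbare library, and in GW6a-4.6 it did not pass at -0.31. Os01t0958000-01, annotated as a homolog of cell division control protein 2, fell 1.31-fold to 179 ± 11.9 in OsglHAT1-OE, against 235 ± 7.16 in Nipponbare. Os05t0389700-01, with the same wording, fell 1.4-fold and Os12t0203000-01, a CDK-like protein, 1.69-fold in that line, both calls being lost without replicate 1 of Nipponbare.

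No inhibitor of the kinases was called lower. Of 5 tested CDK inhibitor loci, 2 were higher in OsglHAT1-OE and 3 in GW6a-4.6, or 40.0% and 60.0%, beside 22.8% and 26.7% of all tested loci. Os03t0137800-01 had 51.1, 54.3 and 41.1 in the libraries labelled OsglHAT1-OE, 60.3, 49.3 and 57.2 in those labelled GW6a-4.6, and 27.8 and 32.6 in Nipponbare. It rose 1.62-fold and 1.84-fold (adjusted p = 0.000137 and 4.11e-06). Os02t0762400-01 and Os11t0614800-00, named after their values were seen, passed in neither line, with log2 changes from -0.13 to 0.08. Without replicate 2 of Nipponbare, 1 inhibitor was called higher in each line.

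The E2F and DP loci hold transcription factors of replication genes and an E2F-associated phosphoprotein. Of these 7 loci, 3 were higher and 3 lower in OsglHAT1-OE, or 42.9% each, beside 22.8% and 29.7% of all tested loci. In GW6a-4.6, 4 were higher and 2 lower, or 57.1% and 28.6%, beside 26.7% and 19.5%. The phosphoprotein was among those called lower in each line. The E2F homolog Os12t0158800-01 had 103, 110 and 94.3 in the libraries labelled OsglHAT1-OE, 91.4, 110 and 98.9 in those labelled GW6a-4.6, and 59.7 and 69.5 in Nipponbare. It rose 1.59-fold and 1.55-fold. The E2F family locus Os06t0245900-01 had 19.7, 24.6 and 17.7 in the libraries labelled OsglHAT1-OE, 31.6, 24.8 and 25 in those labelled GW6a-4.6, and 15.2 and 12.9 in Nipponbare, 1.47-fold and 1.93-fold higher, and Os02t0739700-01 was 1.43-fold and 1.73-fold higher. Both OsglHAT1-OE calls were lost without replicate 2 of Nipponbare, the first also without replicate 2 and the second without replicate 1 of OsglHAT1-OE. The E2F-DP locus Os03t0152100-01, named for the partner that E2F needs to bind DNA, had 11.3, 8.87 and 9.43 in the libraries labelled OsglHAT1-OE, 13.7, 12.2 and 15.6 in those labelled GW6a-4.6, and 21.2 and 19 in Nipponbare. It fell 2.04-fold in OsglHAT1-OE and 1.45-fold in GW6a-4.6, the second of these calls being lost when either Nipponbare library or replicate 1 or 2 of GW6a-4.6 was left out. The E2F1-like locus Os04t0416100-01 fell 1.66-fold in OsglHAT1-OE, to 23.5, 17.2 and 13.1, against 27.4 and 32.1 in Nipponbare, a call lost without replicate 2 of Nipponbare, and did not pass in GW6a-4.6 (-0.15). The E2F-associated phosphoprotein Os02t0635700-01 was lower in both lines, by 1.83-fold and 1.34-fold. Without replicate 1 or replicate 2 of Nipponbare, or replicate 1 of GW6a-4.6, no E2F or DP locus was called lower in GW6a-4.6, and without replicate 2 of Nipponbare 1 was called higher and 2 lower in OsglHAT1-OE.

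The loci named for cell division control protein 48, an ATPase that pulls ubiquitin-tagged proteins out of complexes and membranes, were not higher in either line. Of 5 tested, 4 were lower in OsglHAT1-OE and 2 in GW6a-4.6, or 80.0% and 40.0%, beside 29.7% and 19.5% of all tested loci. The homolog A locus Os03t0151800-02 had 648, 647 and 620 in the libraries labelled OsglHAT1-OE, 615, 724 and 669 in those labelled GW6a-4.6, and 994 and 1009 in Nipponbare. Both lines lay well below Nipponbare, at log2 changes of -0.65 (SE 0.08, adjusted p = 2.51e-09) and -0.58 (SE 0.08, adjusted p = 3.41e-08). Os10t0442600-01 was 1.2-fold lower in OsglHAT1-OE and 1.2-fold lower in GW6a-4.6, and Os04t0617600-01 1.24-fold lower in OsglHAT1-OE, calls that all ended without replicate 1 of Nipponbare. The homolog B locus Os04t0498800-01 had 42.3, 47.1 and 34.1 in the libraries labelled OsglHAT1-OE, 42.7, 43.4 and 49.6 in those labelled GW6a-4.6, and 57 and 47.2 in Nipponbare. Its call in OsglHAT1-OE, at -0.34, was lost under 12 of 19 alternatives, median-ratio scaling, edgeR and leaving out replicate 3 of OsglHAT1-OE among them. Os09t0515100-02 had 359, 372 and 331 in the libraries labelled OsglHAT1-OE, 335, 361 and 344 in those labelled GW6a-4.6, and 359 and 366 in Nipponbare, and passed in neither line. Without replicate 1 of Nipponbare, 1 of these loci was called lower in each line.

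Fewer loci were called between the 2 lines than against Nipponbare, both among the cell cycle loci and among all tested loci. Set against GW6a-4.6, OsglHAT1-OE was higher at 5 and lower at 33 of the 144 tested cell cycle loci, or 3.47% and 22.9%, with a median log2 change of -0.1. Over all tested loci 32.4% were called, 7.69% being higher and 24.7% lower. The share of cell cycle loci called lower was near that of all tested loci. Of all tested loci 2421 were higher and 7788 lower, against 5889 and 5856 after median-ratio scaling, which divides each library by the median ratio of its loci to their geometric mean over libraries. The median of all tested loci was -0.13 on the log2 scale with the deposited values and 0.01 after median-ratio scaling. With that scaling 29 of the 144 cell cycle loci were higher and 20 lower, beside those 5889 and 5856 of all 31487 tested loci. All 5 called higher and 20 of the 33 called lower kept their call and direction, and 24 not called before were then called higher. Without replicate 3 of OsglHAT1-OE, 9 of the 144 were higher and 17 lower, beside 3258 and 6110 of all 31487 tested loci.

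Differences between the lines are given below relative to that median of -0.13, with the value after median-ratio scaling beside them. The cyclin-related 2 locus Os10t0563900-01 had 31.1, 27.1 and 24.8 in OsglHAT1-OE, against 13.2, 14.5 and 16.7 in GW6a-4.6, a difference of 0.99 relative to the median and 1.0 after scaling (adjusted p = 5.11e-06). The cyclin D locus Os09t0111100-01 was higher by 0.51 relative to the median, and by 0.53 after scaling (adjusted p = 0.000154). Cyclin-A1-2 (Os01t0233100-00) and the ribonucleotide reductase-related Os08t0200100-01 each stood 0.43 above the median, and 0.46 after scaling. Leaving out 1 library could end each of these last 3 calls with the deposited values: that of the cyclin D locus without replicate 2 or 3 of GW6a-4.6 or replicate 1 or 2 of OsglHAT1-OE, and those of the other two without either Nipponbare library, replicate 2 of GW6a-4.6, or replicate 1 or 2 of OsglHAT1-OE, together with replicate 1 of GW6a-4.6 for cyclin-A1-2 and replicate 3 for the reductase. In the other direction, the 3 cyclin B loci near Os02t0800500-01 were lower in OsglHAT1-OE. That locus had 159, 146 and 135 in OsglHAT1-OE, against 203, 212 and 201 in GW6a-4.6, -0.36 relative to the median and -0.34 after scaling (adjusted p = 0.000161), and Os02t0801200-01 gave -0.31 and -0.29. The cyclin D locus Os03t0203800-01 stood at -0.50 relative to the median and -0.47 after scaling. Os05t0326400-01, with a cyclin-related 2 domain, had 13.2, 15 and 10.8 in OsglHAT1-OE, against 24.5, 24.7 and 25.5 in GW6a-4.6, at -0.77 and -0.75. The CDT1-like locus Os04t0185100-01 was at -0.36 and -0.34 (adjusted p = 0.0126), a call lost with the deposited values without replicate 3 of GW6a-4.6. The CDT1a-like locus Os10t0489900-01 was not called with the deposited values, at a log2 change of 0.15. Polymerases kappa and lambda stood at -0.58 and -0.49 relative to the median. The lambda call with the deposited values was lost with no filter, under quantile normalization, and without replicate 3 of OsglHAT1-OE or replicate 2 of GW6a-4.6.

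Several core replication loci were not called between the lines with the deposited values. PCNA (Os02t0805200-01) differed by 0.01 (SE 0.09) and the MCM3 homolog (Os05t0476200-01) by 0.13 (SE 0.09), neither past the threshold. After median-ratio scaling MCM3 was higher in OsglHAT1-OE by 0.28 (adjusted p = 0.00773) and MCM4 (Os01t0544450-01) by 0.18 (adjusted p = 0.0378). With the deposited values, 4 of the 17 MCM, CDT1, ETG1 and origin recognition loci were lower in OsglHAT1-OE and none higher. That was 23.5% lower, beside 24.7% of all tested loci. Of 26 DNA polymerase loci 6 were lower, or 23.1%, and none higher. Among the lower ones was Os06t0218500-01 of the MCM, CDT1 and ETG1 group, named after its values were seen. It stood at -0.41 relative to the median of all loci and -0.38 after scaling (adjusted p = 0.00306).

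**Figure D4:**
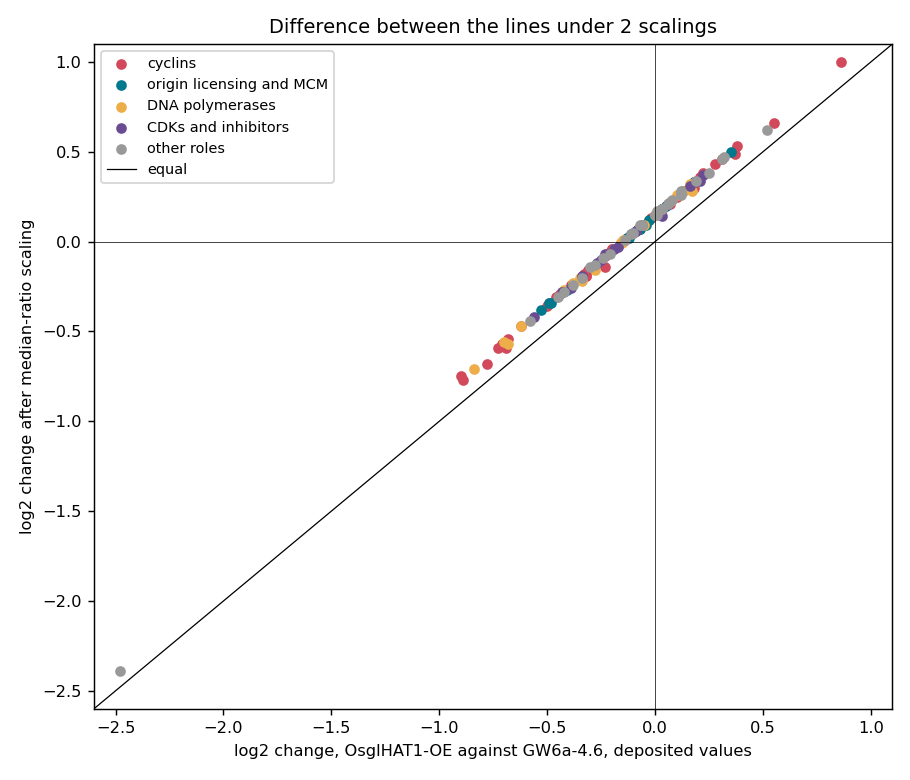
Log2 change of OsglHAT1-OE against GW6a-4.6 for the 144 tested loci, with the deposited values (x) and after median-ratio scaling (y); points are loci, coloured by role, and the line marks equality. The points lie above the line, in step with the median of all loci moving from -0.13 to 0.01.

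Other genes of the pathway, outside the annotation rule, were also higher more often than lower. Of 47 tested loci for proteins such as the GINS and CDC45 helicase partners, primase, replication protein A, DNA ligase, the anaphase-promoting complex, spindle checkpoint and condensin, 30 were higher and 5 lower in OsglHAT1-OE, and 33 higher and 2 lower in GW6a-4.6. That was 63.8% higher and 10.6% lower in OsglHAT1-OE, beside 22.8% and 29.7% of all tested loci. In GW6a-4.6 it was 70.2% and 4.26%, beside 26.7% and 19.5%. The median log2 changes of these pathway loci were 0.63 and 0.56, beside -0.08 and 0.07 over all tested loci. Without either Nipponbare library 2 were lower in OsglHAT1-OE, and without replicate 2 of Nipponbare 1 was lower in GW6a-4.6. Replication protein A1 (Os03t0214100-01), which coats single-stranded DNA, had 321, 290 and 266 in the libraries labelled OsglHAT1-OE, 250, 267 and 267 in those labelled GW6a-4.6, and 104 and 82.6 in Nipponbare, 3.14-fold and 2.8-fold higher. The 30 kDa replication protein A (Os02t0829100-01) rose 3.5-fold and 3.36-fold. The 70 kDa replication protein A (Os02t0776800-02), named after its values were seen, had 48.7, 55.7 and 52 in the libraries labelled OsglHAT1-OE, 39.6, 41.3 and 43.1 in those labelled GW6a-4.6, and 52.5 and 61.4 in Nipponbare. It was lower in GW6a-4.6 at -0.45 (adjusted p = 0.00448), a call lost without replicate 2 of Nipponbare, and did not pass in OsglHAT1-OE at -0.12. Subunit 11 of the anaphase-promoting complex (Os07t0411200-01), the ligase subunit that marks cyclin B for destruction at the end of mitosis, had 39.5, 36 and 30.2 in the libraries labelled OsglHAT1-OE, 32.3, 25.8 and 31.9 in those labelled GW6a-4.6, and 6.29 and 5.18 in Nipponbare. Its folds were 6.14 and 5.23. An aurora kinase (Os01t0191800-01), of a family that guides chromosomes on the spindle, rose 2.77-fold to 66.2 ± 4.4 and 2.35-fold to 56.3 ± 1.93, against 23.9 ± 0.947 in Nipponbare.

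Some pathway genes outside the naming rule were looked at after their values were seen, because they complete a complex or a brake. PROLIFERA (Os12t0560700-01), the name of MCM7 in Arabidopsis, had 122, 149 and 118 in the libraries labelled OsglHAT1-OE, 115, 119 and 132 in those labelled GW6a-4.6, and 57 and 58.4 in Nipponbare, 2.25-fold and 2.12-fold higher. The retinoblastoma-related locus Os08t0538700-01, the brake on E2F, rose 1.89-fold to 90.5 ± 6.59 and 1.88-fold to 89.9 ± 13.7, against 47.8 ± 0.331 in Nipponbare. A locus similar to retinoblastoma-related protein 2b (Os11t0533500-01) had 117, 119 and 103 in the libraries labelled OsglHAT1-OE, 112, 126 and 118 in those labelled GW6a-4.6, and 139 and 132 in Nipponbare. All libraries of both lines lay below Nipponbare, and it was called lower in OsglHAT1-OE at -0.26 (adjusted p = 0.0287) and did not pass in GW6a-4.6 at -0.20. The OsglHAT1-OE call was lost under 7 of 19 alternatives, among them median-ratio scaling, edgeR, and leaving out either Nipponbare library or replicate 3 of OsglHAT1-OE. The Wee1-like kinase Os02t0135300-00, which holds CDKs inactive, had 46.1, 48.3 and 36.1 in the libraries labelled OsglHAT1-OE, 29.6, 31 and 35.9 in those labelled GW6a-4.6, and 16.7 and 13.8 in Nipponbare, 2.85-fold and 2.11-fold higher. Among the other helicase partners, the CDC45-like loci Os11t0128400-01 and Os12t0124700-01 were higher, at 1.69 and 1.56 in OsglHAT1-OE and 1.2 and 1.33 in GW6a-4.6. The GINS subunit PSF1 (Os05t0453900-00) was called higher in OsglHAT1-OE at 1.07, a call lost without replicate 2 of Nipponbare. It did not pass in GW6a-4.6 at 0.65. The GINS subunit SLD5 (Os05t0143400-01) was called lower in OsglHAT1-OE at -0.32. That call was lost under median-ratio scaling, with edgeR, and without replicate 2 of Nipponbare or replicate 1 of OsglHAT1-OE. PSF2 (Os01t0248600-01) passed in neither line.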

How the data were processed

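Single-end RNA sequencing libraries of 8 shoot apical meristem samples were used: 3 labelled OsglHAT1-OE, 3 labelled GW6a-4.6 and 2 of Nipponbare. The submitters' processing notes name the build IRGSP-1.0 and the tools Bowtie and edgeR, without versions or roles. The deposited values, per the file headers called RPM, are a signal per transcript model: within 0.01, 100% of values were whole multiples of what 1 read is worth in their library. Columns summed to 2411271 to 2690367, more than the reads recovered per library allow if each counted once. Values of close copies may share reads, and a read may also count more than once at the same locus. The recovered counts of Os01t0166800-01, for example, were even in all 8 libraries, from 394 to 1100. Recovered reads are therefore read alignments and may overstate the number of reads. How reads came to be counted more than once was not tested. A value of 3 reads, the limit that a count of 0 allows, was 0.391 to 0.576 (counting error only).

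The 43481 models were reduced to the highest-mean model of each of 36819 loci. For 7 cell cycle loci the matching model was not that one and took its place. Loci that reached a value of 1 in 2 libraries or more were fitted on log2(value + 1), with 1 mean per group over all 8 libraries and an intensity trend, in limma 3.58.1 (R 4.3.3), with Benjamini-Hochberg adjustment over 31487 loci at 0.05. Folds are ratios of group means. Replicate numbers did not pair the samples. Alternatives used edgeR 4.0.16 and DESeq2 1.42.0 on recovered reads, other scalings and filters, and left-out libraries. The loci and lists were chosen with earlier results of these data known. Named per role were up to 5 loci with the smallest adjusted p, all with a mean of 5 or more called lower, and up to 5 each way between the lines. Most other named loci are marked as chosen afterwards. The code was tested on simulated data. No sequences were used here.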

Additional observations from a re-analysis of the deposited data

How the results depend on the processing

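Counts of cell cycle loci called higher against Nipponbare stayed within 1.5 times of the first count under every alternative. Those called lower ranged, as single libraries were left out, from 15 to 29 in OsglHAT1-OE and from 10 to 17 in GW6a-4.6, the lowest count in each case being without replicate 1 of Nipponbare. Between the lines, counts moved with most settings. OsglHAT1-OE was higher than GW6a-4.6 at 5 loci with the deposited values, and at 2 with no filter, 29 after median-ratio scaling, 26 after quantile normalization, 12 after scaling to 1 common column sum, 32 with edgeR, 25 with DESeq2, 3 with only the 2 groups and 3 with all models summed, and 1 to 9 as single libraries were left out. It was lower at 33, and at 18 with no filter, 20 after median-ratio scaling, 16 after quantile normalization, 18 with edgeR and 13 with DESeq2, and 17 to 35 as single libraries were left out. The CDC48-like locus Os10t0442600-01 differed by -0.00 between the lines and by 0.15 after median-ratio scaling, 0.16 with edgeR and 0.15 with DESeq2. Causes were not tested, beyond the median of all loci moving with the scaling. Over named loci and alternatives, 3719 values kept direction and side of the threshold, 83 passed it newly, 182 no longer passed and 3 turned direction.

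Same-numbered samples correlated between -0.00259 and 0.0648 in their deviations, so the numbers give no pairing. With replicate as a block, 73 loci were higher and 25 lower in OsglHAT1-OE and 88 and 14 in GW6a-4.6, and 5 and 36 between the lines. With 2 Nipponbare libraries, their spread rests on a single difference, and a lone left library is assumed to vary like the other groups.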

Other observations

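The annotation rule also caught loci that share only letters with a cell cycle name. A DNA (cytosine-5)-methyltransferase (Os10t0104900-01), of the class that copies methylation onto newly made DNA, matched through its synonym MCMT. It had 137, 130 and 115 in the libraries labelled OsglHAT1-OE, 92.8, 108 and 103 in those labelled GW6a-4.6, and 41.8 and 36.1 in Nipponbare. All libraries of both lines lay above Nipponbare, 3.26-fold in OsglHAT1-OE and 2.6-fold in GW6a-4.6, with log2 changes of 1.68 (SE 0.11, adjusted p = 2.44e-15) and 1.36 (SE 0.11, adjusted p = 1.27e-12) in limma. A ferritin and ribonucleotide reductase-like locus (Os01t0508100-01) had 1.17, 0.782 and 0.295 in the libraries labelled OsglHAT1-OE, 11.1, 5.73 and 9.78 in those labelled GW6a-4.6, and 1.17 and 1.15 in Nipponbare. It was higher in GW6a-4.6, at a log2 change of 2.15 (SE 0.32, adjusted p = 6.9e-07), and OsglHAT1-OE lay below GW6a-4.6, at -2.48 (SE 0.29, adjusted p = 7.94e-09). Both ribosome recycling factors, which match through the letters of recycling, passed in neither line. The calcyclin-binding protein Os01t0757500-02 was called lower in OsglHAT1-OE at -0.40, and that call was lost under 8 of 19 alternatives, among them leaving out either Nipponbare library or replicate 2 of OsglHAT1-OE.

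Another 5 loci were annotated as RNA-directed DNA polymerases, the reverse transcriptases of mobile elements. None was called higher in either line. In OsglHAT1-OE 1 was lower, or 20.0% beside 29.7% of all tested loci, and in GW6a-4.6 2 were lower, or 40.0% beside 19.5%. Os10t0567500-01 had 20.5, 25.8 and 21.2 in the libraries labelled OsglHAT1-OE, 17.1, 19.5 and 22.1 in those labelled GW6a-4.6, and 30.1 and 32.6 in Nipponbare, and fell 1.39-fold in OsglHAT1-OE, a call lost without either Nipponbare library or replicate 1 of OsglHAT1-OE, and 1.6-fold in GW6a-4.6. Os09t0266000-02 was 1.77-fold lower in GW6a-4.6, a call lost without replicate 1 of Nipponbare or replicate 3 of GW6a-4.6, and Os01t0930300-01 and Os06t0634100-01 passed in neither line. Without these 10 loci, a choice made after seeing the data, 70 of 134 tested cell cycle loci were higher and 27 lower in OsglHAT1-OE, and 82 higher and 14 lower in GW6a-4.6.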
